A study of Danio rerio with 6 samples.

Results

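The cardiac myosin heavy chain genes of zebrafish are described here, the genes that encode the motor protein of the thick filament in heart muscle. They were chosen by name: 7 names (myh6, myh7, myh7l, myh7ba, myh7bb, vmhc and vmhcl), matched without regard to case, found 5 of the 14211 gene IDs in the data. The data are 6 polyA RNA libraries from the apex of the heart ventricle of adult zebrafish of the AB strain. In the RO group (3 libraries, replicates 2, 3 and 4) fish were given RO, an inhibitor of gamma secretase, and in the DMSO group (3 libraries, replicates 1, 2 and 3) the DMSO carrier. Fish of both groups had their hearts cryoinjured, a local freezing of the muscle, were injected into the peritoneal cavity 24 h and 48 h later, and were sampled 72 h after injury. Each library pooled the apices of 3 hearts, so values of single fish were not measured, and there was no group without injury or without injection. The comparison asks how transcripts of the injured apex differ when gamma secretase, the protease that releases the intracellular domain of Notch receptors, is inhibited.

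A sarcomeric myosin heavy chain carries a motor head, which binds actin and splits ATP, and a long coiled tail, which packs into the thick filament. The chains pair and bind light chains to form a working motor, and the kind of heavy chain sets how fast the muscle shortens. Vertebrate hearts use several heavy chain genes that differ by chamber and stage. In zebrafish, the myh6 gene, also called amhc, is the atrial chain, and vmhc is the ventricular chain. MYH7B is an old branch of the same family, and in mammals its gene carries the microRNA miR-499 in an intron.

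The 5 IDs stand under 4 of the 7 names. The name MYH7, spelled as in human, belongs to ENSDARG00000079782. The name MYH6, in the human spelling, belongs to ENSDARG00000079564, and myh6, in the zebrafish spelling, to ENSDARG00000090637. The names myh7ba and myh7bb belong to ENSDARG00000076075 and ENSDARG00000035322. A further MYH6 ID of the name table, ENSDARG00000114031, has no row among these values. No row carries the names myh7l, vmhc or vmhcl. The RefSeq table (assembly GRCz12tu) gives vmhc as a synonym of myh7 and vmhcl as a synonym of myh7l, and places myh7 and myh7l side by side with a single microRNA gene between them. It does not pair these names with the IDs used here, so it was not settled which of MYH7 and MYH6 (ENSDARG00000079564) is vmhc or vmhcl, and no chamber is assigned to either. The RefSeq table also lists mir499a as the next gene after myh7ba. The values of MYH7 rest on 8 annotated transcripts, those of myh7ba on 3, those of myh7bb on 2 and those of each MYH6 ID on 1.

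The values are on the CPM scale, that is reads per unit of an effective library size, and 3306018 to 4463303 recovered reads stand behind each library. Every one of the 5 genes passed the minimum of 1 in at least 3 libraries. Genes defining heart muscle were abundant: the 9 measured IDs of the cardiomyocyte marker list summed to 23171 to 28879 in RO and 26588 to 32466 in DMSO libraries, and none stood at 0. Levels are printed as mean ± SD over 3 libraries, and the tests are limma on log2(value + 0.5) and p-values were adjusted over the 14211 genes (Benjamini-Hochberg). A gene was called at an adjusted p below 0.05. As nothing in the labels says that the libraries of a group came from separate experiments, p-values measure the spread between these pools. Reads of closely related copies can be split between genes, which leaves the single values of this family uncertain, and the use of strand is not given in the sources used here.

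Of the 5 genes, 3 were called: myh7bb and myh7ba fell and MYH6 (ENSDARG00000079564) rose in RO. The threshold was passed by 1.03% of all genes, 0.647% higher and 0.387% lower in RO. The members were chosen with earlier results of these data known, so their count of calls is not a test of the family. The fall of myh7bb was 2.31-fold and that of myh7ba 1.58-fold, while the rise of MYH6 (ENSDARG00000079564) was 1.596-fold. In these 3 genes no RO value lay within the DMSO range, a separation met by 18.7% of all genes (9.32% higher and 9.35% lower in RO). MYH7 and myh6 (ENSDARG00000090637) were not called. The edgeR quasi-likelihood test and DESeq2 on the recovered reads, also called these 3 and neither of the others. Over the table edgeR called 1.1% of all genes. DESeq2 gave no adjusted p to 6337 genes, which count neither as called nor as uncalled by it, and called 3.05% of the 7874 others.

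**Figure D1:**
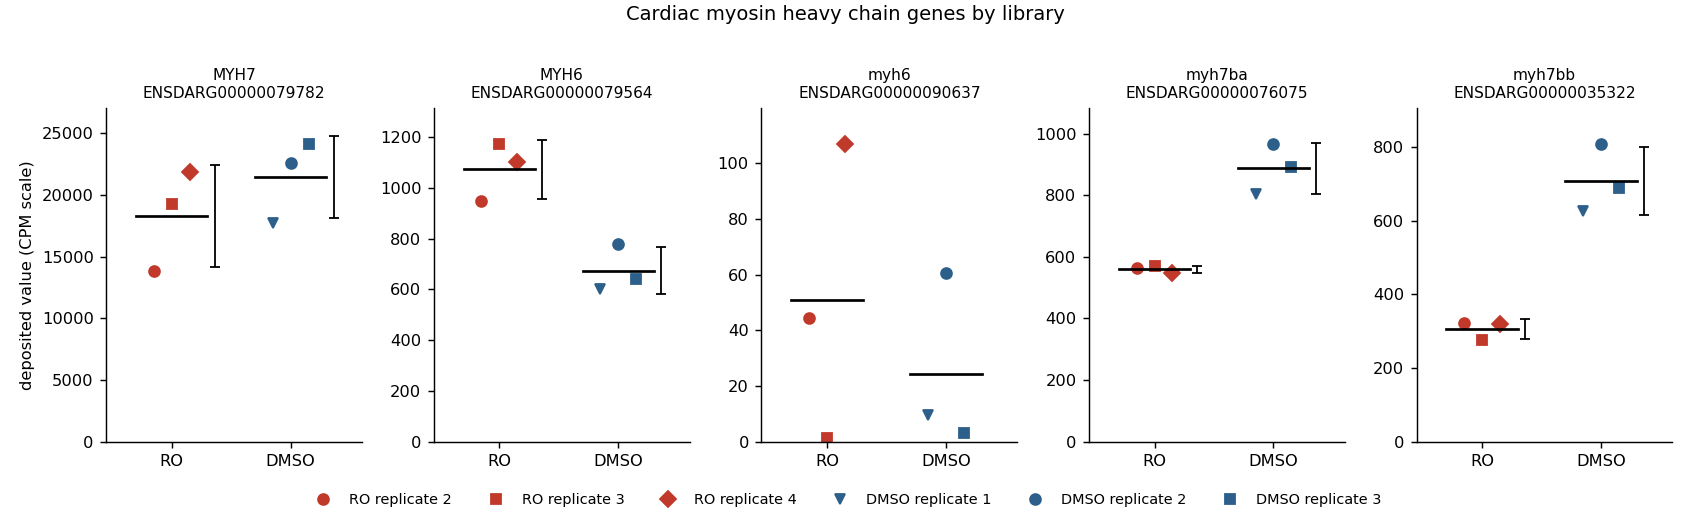
Deposited values (CPM scale, linear axes from 0) of the 5 cardiac myosin heavy chain genes in each library, RO left and DMSO right. Points are libraries, horizontal lines are means and bars beside them are ± 1 SD (n = 3), left out for myh6 where the SD exceeds the mean; the groups are apart for MYH6 (ENSDARG00000079564), myh7ba and myh7bb and overlap for MYH7 and myh6.

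The paralog myh7bb (ENSDARG00000035322), of the MYH7B branch, had the largest log2 fold change in size of the 5. Its values were 322, 276 and 320.2 in RO replicates 2, 3 and 4, against 628, 809 and 689 in DMSO replicates 1, 2 and 3. The highest RO library thus lay below the lowest DMSO library by more than either group spread. The means were 306 ± 26.2 in RO and 708 ± 92.1 in DMSO, and the log2 fold change was -1.21 with a standard error of 0.13 (limma adjusted p = 0.00262). The fall was 2.31-fold with a 95% interval of 1.90 to 2.79. By unadjusted p it ranked 6 among the 14211 genes. The values rest on 1152 to 1316 reads per RO library and 2313 to 3133 reads per DMSO library. The call held whichever single library was left out, with log2 fold changes of -1.29 to -1.11 and adjusted p of 0.0037 to 0.0178. It was lost only without the mean-variance trend of limma (adjusted p = 0.0826), a setting that called 0.00704% of all genes, that is 1 gene. Under the other alternatives with no library left out, the adjusted p was 5.6e-14 to 0.00305. Among them, limma with the replicate number as a block (adjusted p = 0.000857) compares only replicates 2 and 3 of the groups.

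Its paralog myh7ba (ENSDARG00000076075) also fell, and less far. The RO libraries stood at 563, 569 and 548, within a factor of 1.04 of each other, against 803, 966 and 892 in DMSO replicates 1, 2 and 3. No RO library reached the lowest DMSO library. The means were 560.1 ± 10.9 in RO and 887 ± 81.8 in DMSO, a log2 fold change of -0.66 with a standard error of 0.11 (limma adjusted p = 0.0255). The fall was 1.58-fold with a 95% interval of 1.33 to 1.87. The direction held without any single library, at log2 fold changes of -0.73 to -0.59. The call did not: the adjusted p was 0.104 without RO replicate 3, 0.0556 without RO replicate 4, 0.104 without DMSO replicate 2 and 0.0773 without DMSO replicate 3, in a range of 0.0434 to 0.104 over the 6 cases.

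Within a library, the reads of the pair can be set against each other, a ratio that the scaling of the library does not touch. There were 57.1, 48.4 and 58.4 myh7bb reads per 100 myh7ba reads in RO replicates 2, 3 and 4. The DMSO libraries held 78.2, 83.7 and 77.2. The ratio was lower in every RO library than in any DMSO library, at 54.7 ± 5.44 against 79.7 ± 3.48, and was not tested. The summed value of myh7ba and myh7bb was 866 ± 20.1 in RO and 1595 ± 173 in DMSO, and these groups did not overlap.

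MYH6 (ENSDARG00000079564), named after the human alpha chain, was the 1 called gene that rose. It stood at 947, 1173 and 1101 in RO replicates 2, 3 and 4, against 601, 779 and 643 in DMSO replicates 1, 2 and 3. All RO libraries lay above all DMSO libraries. The means were 1074 ± 116 in RO and 674 ± 93.3 in DMSO, with a log2 fold change of 0.67 and a standard error of 0.14 (limma adjusted p = 0.0454). The rise was 1.596-fold with a 95% interval of 1.298 to 1.96. The gene stood 128th by unadjusted p among the 147 called genes, close to the threshold. The call was kept without RO replicate 2 (adjusted p = 0.0394) and ended without each of the others, at 0.177 without RO replicate 3, 0.0882 without RO replicate 4, 0.150 without DMSO replicate 1, 0.0663 without DMSO replicate 2 and 0.140 without DMSO replicate 3. The direction held in all 6 cases, with log2 fold changes of 0.60 to 0.78. The difference between the means, a value of 399.6, equals 2.18% of the mean value of MYH7 in RO. Whether reads of MYH7 were assigned to this ID was not tested.

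MYH7 (ENSDARG00000079782), named after the human beta chain, held most of the family's reads and was not called. Its values were 13806, 19275 and 21849 in RO replicates 2, 3 and 4, against 17730.0, 22564 and 24134 in DMSO replicates 1, 2 and 3. The groups overlapped: RO replicates 3 and 4 lay above DMSO replicate 1, and RO replicate 2 lay below every other library. The means were 18309.8 ± 4107 in RO and 21476 ± 3338 in DMSO, a log2 fold change of -0.24 (limma adjusted p = 0.707). Its 95% interval, -0.75 to 0.26, holds a fall of up to 1.68-fold and a rise of up to 1.198-fold. Without RO replicate 2 the log2 fold change was -0.053, and over the 6 cases it was -0.38 to -0.05 with adjusted p of 0.531 to 0.965.

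The atrial chain gene myh6 (ENSDARG00000090637) varied far more within each group than between the groups. It stood at 44.4, 1.31 and 107 in RO replicates 2, 3 and 4, against 9.72, 60.4 and 3.27 in DMSO replicates 1, 2 and 3. The highest RO library was 81.3 times the lowest and the highest DMSO library 18.4 times the lowest, where the other members spanned factors of 1.04 to 1.58 within a group. In reads these were 159, 6 and 439 in RO and 40, 234 and 11 in DMSO, so the lowest libraries rest on few reads. The log2 fold change was 0.63 with a 95% interval of -2.22 to 3.49 (limma adjusted p = 0.887), and its direction turned without RO replicate 4 (-0.56) or DMSO replicate 3 (-0.28). No difference was detectable at this spread.

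Other genes on the list of atrial chamber genes did not span such a range. Of 5 measured IDs of the atrial list, 2 had log2 fold changes above 0 and 3 below, with a median of -0.00071. None was called by limma or edgeR, nor by DESeq2 among the 3 that it gave an adjusted p. An unadjusted limma p below 0.05 was found for 1 of the 5, against 13.4% of all genes. The natriuretic peptide gene nppa stood at 4278 ± 343 in RO and 3514 ± 727 in DMSO (limma adjusted p = 0.504), far above myh6 in every library. How specific the genes of this list are to the atrium in this tissue was not tested. The smoothelin-like gene smtnl1, singled out after its values were seen, stood at 5.87, 1.75 and 9.98 in RO replicates 2, 3 and 4 and at 7.54, 4.65 and 2.68 in DMSO replicates 1, 2 and 3. Like myh6, it was lowest in RO replicate 3 and highest in RO replicate 4, but its levels rest on few reads. In DMSO both were lowest in replicate 3, as were nppa, TBX5 and NR2F2 but not NR2F1. Among the DMSO libraries smtnl1 was highest in replicate 1 and myh6 in replicate 2. No other ID of the list was highest in RO replicate 4 among the RO libraries. There nppa, NR2F1 and NR2F2 were highest in replicate 2 and TBX5 in replicate 3, and only nppa and NR2F1 were also lowest in replicate 3. How much atrial tissue each pool held was not measured. The summed value of the list, most of it nppa, was 3994 to 4662 in RO and 2803 to 4273 in DMSO libraries.

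**Figure D2:**
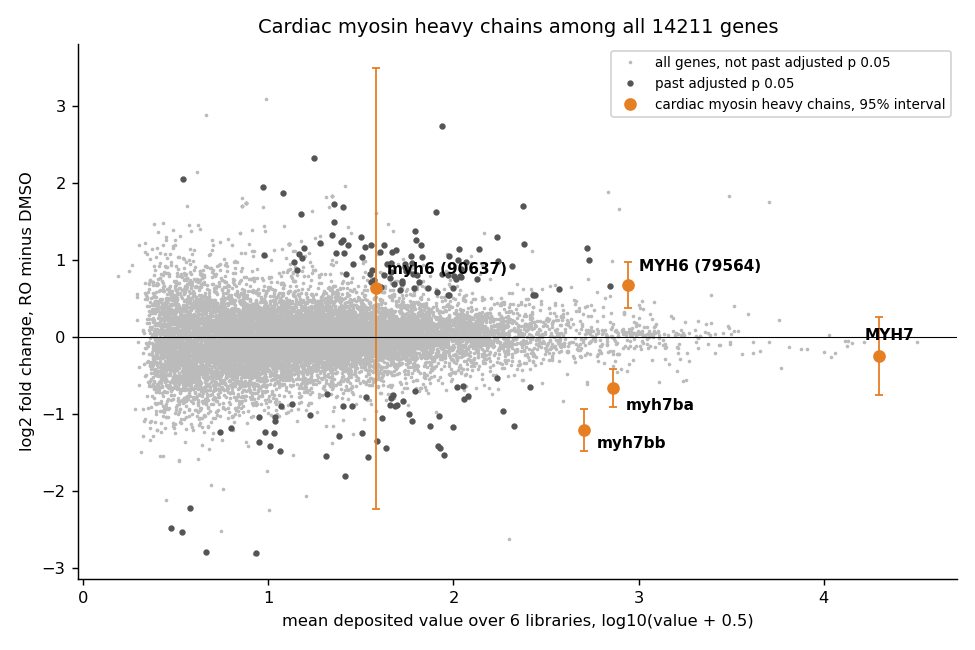
Log2 fold change (RO minus DMSO, vertical axis) against mean deposited value over 6 libraries (horizontal axis, log10 of value + 0.5) for all 14211 genes in grey, called genes in dark grey and the 5 cardiac myosin heavy chains in orange with 95% intervals. The intervals of myh7bb, myh7ba and MYH6 (ENSDARG00000079564) stay clear of 0, and that of myh6 (ENSDARG00000090637) runs from -2.22 to 3.49.

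The reads of the 5 genes made up 1.54% to 2.36% of all recovered reads in RO and 2.03% to 2.68% in DMSO libraries. Their summed value was 20300.5 ± 4211 in RO and 23770.0 ± 3513 in DMSO, and these sums overlapped. MYH7 took 90.0% ± 1.71 of the family's reads in RO and 90.3% ± 1.102 in DMSO. These are shares of reads, not of molecules, since no transcript lengths were used.

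The shares of MYH7 overlapped between the groups, and among the other members the order by share of reads differed between them. MYH6 (ENSDARG00000079564) took 6.04%, 5.51% and 4.60% of the family's reads in RO replicates 2, 3 and 4, against 3.04%, 3.09% and 2.44% in DMSO replicates 1, 2 and 3. The gene myh7bb took 2.05%, 1.29% and 1.34% in the RO libraries, against 3.17%, 3.21% and 2.61% in the DMSO libraries. Neither gene's shares overlapped between the groups. The share of myh7ba did overlap, at 2.29% to 3.59% in RO and 3.38% to 4.06% in DMSO, with RO replicate 2, where MYH7 was lowest, above DMSO replicate 3. The share of myh6 (ENSDARG00000090637) was 0.00617% to 0.447% in RO and 0.0124% to 0.240% in DMSO.

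Set against MYH7 as the base, MYH6 (ENSDARG00000079564) had 50.4 to 68.6 reads per 1000 MYH7 reads in RO and 26.6 to 34.5 in DMSO libraries. For myh7bb there were 14.3 to 23.3 in RO and 28.5 to 35.8 in DMSO. For myh7ba there were 25.1 to 40.8 in RO and 36.9 to 45.3 in DMSO, which overlapped. Of the ratios computed, the widest separation was between the gene that rose and the gene that fell most, which follows from their opposite changes. MYH6 (ENSDARG00000079564) had 294, 425 and 344 reads per 100 myh7bb reads in RO replicates 2, 3 and 4. In DMSO replicates 1, 2 and 3 it had 95.7, 96.4 and 93.3, so the 2 genes drew nearly equal numbers of reads in every DMSO library. The means were 355 ± 66.3 in RO and 95.1 ± 1.59 in DMSO. These ratios were not tested, as the members were chosen with results of these data known.

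**Figure D3:**
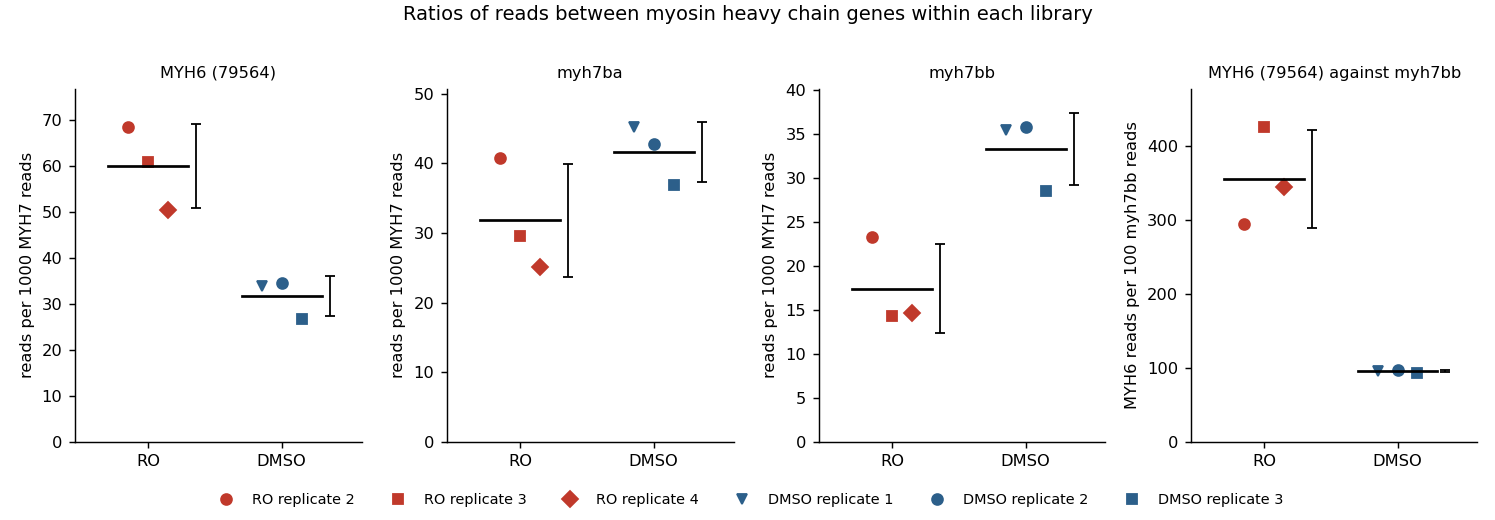
Ratios of recovered reads within each library (linear axes from 0), RO left and DMSO right, for MYH6 (ENSDARG00000079564), myh7ba and myh7bb per 1000 MYH7 reads, and for MYH6 per 100 myh7bb reads. Points are libraries, lines are means and bars are ± 1 SD (n = 3); in the last panel the DMSO libraries sit at 93.3 to 96.4 and the RO libraries at 294 to 425.

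The level of heart muscle transcripts is given beside the members. All 9 measured IDs of the cardiomyocyte marker list had negative log2 fold changes; their median was -0.21, against -0.01 over all genes. None was called by limma, edgeR or DESeq2, and none had an unadjusted p below 0.05. The 2 with the highest mean value were MYL7, given below, and TNNT2. TNNT2 stood at 3827 ± 541 in RO and 4433 ± 764 in DMSO (log2 fold change -0.21, limma adjusted p = 0.671). In bulk tissue, fewer heart muscle cells and less RNA per cell cannot be told apart. Per 1000 of the summed marker value, myh7bb stood at 10.3 to 13.9 in RO and 21.5 to 24.9 in DMSO. The gene myh7ba stood at 19.0 to 24.3 in RO and 27.8 to 30.2 in DMSO, and MYH6 (ENSDARG00000079564) at 38.1 to 43.7 in RO and 20.04 to 24.0 in DMSO. All 3 stayed apart between the groups when set against the markers, while MYH7 overlapped, at 596 to 757 in RO and 667 to 753 in DMSO. These quotients were not tested, nor was the part of heart muscle content in the calls.

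Markers of other cells were read in the same libraries. The 8 fibroblast marker IDs summed to 3851 to 5982 in RO and 6380.0 to 7435 in DMSO, with a median log2 fold change of -0.56. None of them was called by limma or edgeR, while 6 of the 8 had an unadjusted p below 0.05, against 13.4% of all genes. DESeq2 called 3, all of them type I collagen genes and lower in RO, and gave 1 no adjusted p. The 9 endothelial and endocardial IDs summed to 708 to 839 in RO and 725 to 773 in DMSO, and 1, the VEGF receptor gene flt1, was called, higher in RO (log2 fold change 0.80, limma adjusted p = 0.0356). With libraries left out in turn, that call was kept only without DMSO replicate 1, in a range of 0.0462 to 0.121, and it also ended with quantile normalization (0.0534) and without the limma trend (0.174). Of these 9 IDs, 4 had log2 fold changes above 0 and 5 below, with a median of -0.009. An unadjusted p below 0.05 was found for 2, flt1 and TIE1, against 13.4% of all genes. TIE1 was lower in RO, at 94.1 ± 9.20 against 114 ± 7.81 in DMSO (log2 fold change -0.28, limma adjusted p = 0.331). Skeletal muscle markers, most of their value from the creatine kinase gene ckma, summed to 2406 to 2552 in RO and 2340.3 to 3365 in DMSO over 4 IDs. None was called by limma or edgeR, nor by DESeq2 among the 3 with an adjusted p, and 2 of the 4 had an unadjusted p below 0.05, against 13.4% of all genes. None of the 12 skeletal myosin heavy chain names on the list matched a row by name. RefSeq gives smyhc3, a name on that list, as a synonym of myh7, but rows of members were left out of the lists. No limma call was made among 5 epicardial, 10 macrophage or 4 erythrocyte IDs, where 1, 1 and 0 had an unadjusted p below 0.05. The edgeR test called none of them, and DESeq2 none among those with an adjusted p, which 2 epicardial and 2 macrophage IDs lacked. Their sums overlapped between the groups, at 527 to 612 in RO and 458 to 535 in DMSO for epicardium, 438 to 634 in RO and 312 to 547 in DMSO for macrophages, and 645 to 1582 in RO and 728 to 1509 in DMSO for erythrocytes. Most of the epicardial sum was ALDH1A2, which makes retinoic acid, at 517 ± 39.9 in RO and 448 ± 39.3 in DMSO. The other 4 epicardial IDs had negative log2 fold changes, and the median of the 5 was -0.33. The smallest p of the 5 was that of wt1b, at 10.2 ± 1.85 in RO and 18.7 ± 2.41 in DMSO (log2 fold change -0.84, limma adjusted p = 0.0723). Of 5 smooth muscle IDs, 1 was called, the actin-binding gene TAGLN (ENSDARG00000033466), higher in RO (log2 fold change 0.55, limma adjusted p = 0.0491). That call was lost whichever library was left out (0.0529 to 0.160), with edgeR (0.0524), a pseudocount of 0.1 (0.0529) or quantile normalization (0.0668), and without the limma trend (0.216). The other TAGLN copy (ENSDARG00000045408) was lower in RO and not called, at 77.7 ± 21.7 against 100 ± 19.4 in DMSO (log2 fold change -0.38, limma adjusted p = 0.438). Of the 5 smooth muscle IDs, 3 had log2 fold changes above 0 and 2 below, with a median of 0.20. The list summed to 471 to 605 in RO and 406 to 495 in DMSO. The part of these cell types in the myosin values was not tested.

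The list of proteins that form or act on the thick filament gave no limma call. It also holds the light chain rows myl6 and MYL9, kinases and ubiquitin ligases. Its light chain names myl2a, myl2b, myl3 and myl4 matched no row. Of 20 measured IDs, which include light chains, myosin binding proteins, M-band proteins, titin and the chaperones of myosin folding, 7 had positive log2 fold changes and 13 negative ones, and the median was -0.09. None was called by limma or edgeR, and 6 of the 20 had an unadjusted p below 0.05, against 13.4% of all genes. DESeq2 gave 3 no adjusted p and called 2, which lay on opposite sides of 0. These were the myosin light chain kinase gene MYLK3 (limma log2 fold change 0.57) and the ubiquitin ligase gene trim63a (-0.74), which acts on muscle proteins in mammals. MYL7, the regulatory light chain of the zebrafish heart, stood at 9903 ± 410.2 in RO and 11881 ± 1474 in DMSO (log2 fold change -0.26, limma adjusted p = 0.580). MYBPC3, which encodes the cardiac myosin binding protein C, stood at 3393 ± 769 in RO and 3870 ± 208 in DMSO (log2 fold change -0.21, limma adjusted p = 0.662). Without RO replicate 2 the log2 fold change of MYBPC3 was -0.030.

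Among 21 measured IDs of the thin filament and Z-disc, 12 had log2 fold changes above 0 and 9 below, with a median of 0.046. An unadjusted limma p below 0.05 was found for 7 of the 21, against 13.4% of all genes. The groups did not overlap in 6 of the 21, against 18.7% of all genes. Limma and edgeR called 1, the sarcomeric actin gene ACTC1 (ENSDARG00000057911), at 718 ± 122 in RO and 357 ± 58.9 in DMSO (log2 fold change 1.01, limma adjusted p = 0.0139). That call ended without DMSO replicate 1 (0.0560) or DMSO replicate 2 (0.0768), in a range of 0.0134 to 0.0768, and without the limma trend (0.142). DESeq2 called 4, ACTC1 and the genes tcap, xirp1 and ACTA1 (ENSDARG00000036371), and gave 1 no adjusted p. The ID labelled ACTC1 was reached through the zebrafish name acta1b on the list. The gene actc1a (ENSDARG00000042535), printed for comparison, was more abundant, at 10669.5 ± 914 in RO and 12324 ± 1898 in DMSO. It was not called (log2 fold change -0.20, limma adjusted p = 0.699).

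Of the 5 measured heavy chain genes of smooth muscle and non-muscle myosin, which work outside the sarcomere, 4 had log2 fold changes above 0, with a median of 0.20. One was called, a copy of MYH9 (ENSDARG00000063295), a non-muscle chain of cell migration and division, higher in RO. It stood at 88.5 ± 10.1 in RO and 56.8 ± 5.82 in DMSO (log2 fold change 0.63, limma adjusted p = 0.0496). With libraries left out in turn, that call was kept only without RO replicate 4 (0.0452), in a range up to 0.187. It also ended with a pseudocount of 0.1 (0.0544), with quantile normalization (0.0668) and without the limma trend (0.191). The other MYH9 copy (ENSDARG00000001014), printed for comparison with the called one, stood at 416 ± 80.9 in RO and 355 ± 50.7 in DMSO and was not called (log2 fold change 0.22, limma adjusted p = 0.617).

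**Figure D4:**
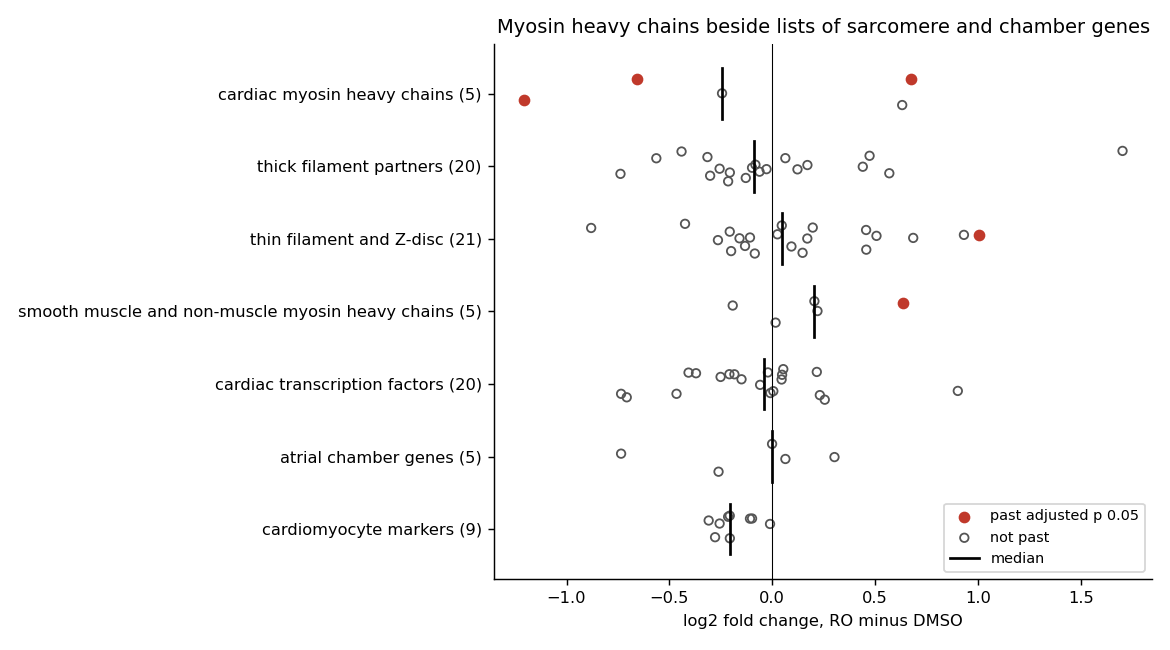
Log2 fold changes (RO minus DMSO) of the 5 cardiac myosin heavy chains in the top row and of 6 gene lists below, with the number of measured IDs in brackets. Each circle is a gene, filled red where called, and black lines are medians; the cardiac myosin heavy chains lie on both sides of 0 with 3 called, and the thick filament partners hold none.

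Transcription factors of heart muscle, several of which act on myosin genes, gave no call. Of 20 measured IDs 8 had log2 fold changes above 0 and 12 below, with a median of -0.04. None was called by limma or edgeR, nor by DESeq2 among the 15 that it gave an adjusted p. An unadjusted p below 0.05 was found for 5 of the 20, against 13.4% of all genes. Lower in RO were TBX5, tbx5b (log2 fold change -0.71), NKX2-5 (-0.47) and TBX20 (-0.41). Higher in RO was SRF (0.90), and the limma adjusted p of the 5 were 0.165 to 0.198. The groups did not overlap in 6 of the 20, against 18.7% of all genes. The summed value of the list was 992 to 1072 in RO and 1108 to 1223 in DMSO libraries. The most abundant by mean value, GATA5 and HAND2, both needed for heart formation in zebrafish, had log2 fold changes of 0.048 and -0.18 (limma adjusted p = 0.911 and 0.533). The direction of GATA5 turned without DMSO replicate 3 (-0.028). TBX5, a factor of heart and limb development, stood at 34.5 ± 10.7 in RO and 56.2 ± 8.71 in DMSO (log2 fold change -0.73, limma adjusted p = 0.165), and the log2 fold change was -0.45 without RO replicate 2. Of the ventricular list 1 ID was measured, HEY2, a repressor that holds back atrial genes in the mouse ventricle, at 7.30 ± 0.644 in RO and 10.99 ± 0.599 in DMSO (log2 fold change -0.56, limma adjusted p = 0.221). Its groups did not overlap, at 6.57 to 7.79 in RO and 10.4 to 11.6 in DMSO, a separation met by 18.7% of all genes. The edgeR test did not call HEY2, and DESeq2 gave it no adjusted p. A list of 1 measured ID gives no reading of chamber identity.

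Genes with a pattern over the 6 libraries most like that of each called member were ranked by Pearson r of log2(value + 0.5), among 9581 genes with a symbol and a mean value of at least 5. An r of 0.95 or more was reached by 63 genes for myh7bb, 60 for myh7ba and 27 for MYH6 (ENSDARG00000079564). The points share libraries and the group difference, so these r are descriptions of 6 values. For myh7bb the closest were GADD45G (r = 0.999), which encodes a growth arrest and DNA damage inducible protein, mgat5 (0.998), an N-glycan branching enzyme, TMEM178A (0.991), ZRANB2 (0.988) and MTG2 (0.988). GADD45G (ENSDARG00000019417) was itself called, at 45.7 ± 3.80 in RO and 102.8 ± 15.8 in DMSO (log2 fold change -1.15, limma adjusted p = 0.00402), also without any single library (0.0081 to 0.0319) but not without the limma trend (0.0875).

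For myh7ba the closest were GAREM1 (r = 0.992), zeb2a (0.992), a zinc finger repressor, dvl2 (0.991), a transducer of Wnt signals, AEBP1 (0.990), a collagen-binding matrix protein, and elf2a (0.990). Of these AEBP1 was called, lower in RO (log2 fold change -0.54, limma adjusted p = 0.0413), and its call ended whichever library was left out (0.0688 to 0.147) and without the limma trend (0.189). For MYH6 (ENSDARG00000079564) they were RAB10 (r = 0.992), a small GTPase of membrane traffic, dnajb1b (0.990), a co-chaperone, BRD8 (0.986), CHRNB2 (0.977), a subunit of nicotinic acetylcholine receptors, and RBMS1 (0.975). None of these 5 was called by limma, with adjusted p of 0.107 to 0.619.

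**Figure D5:**
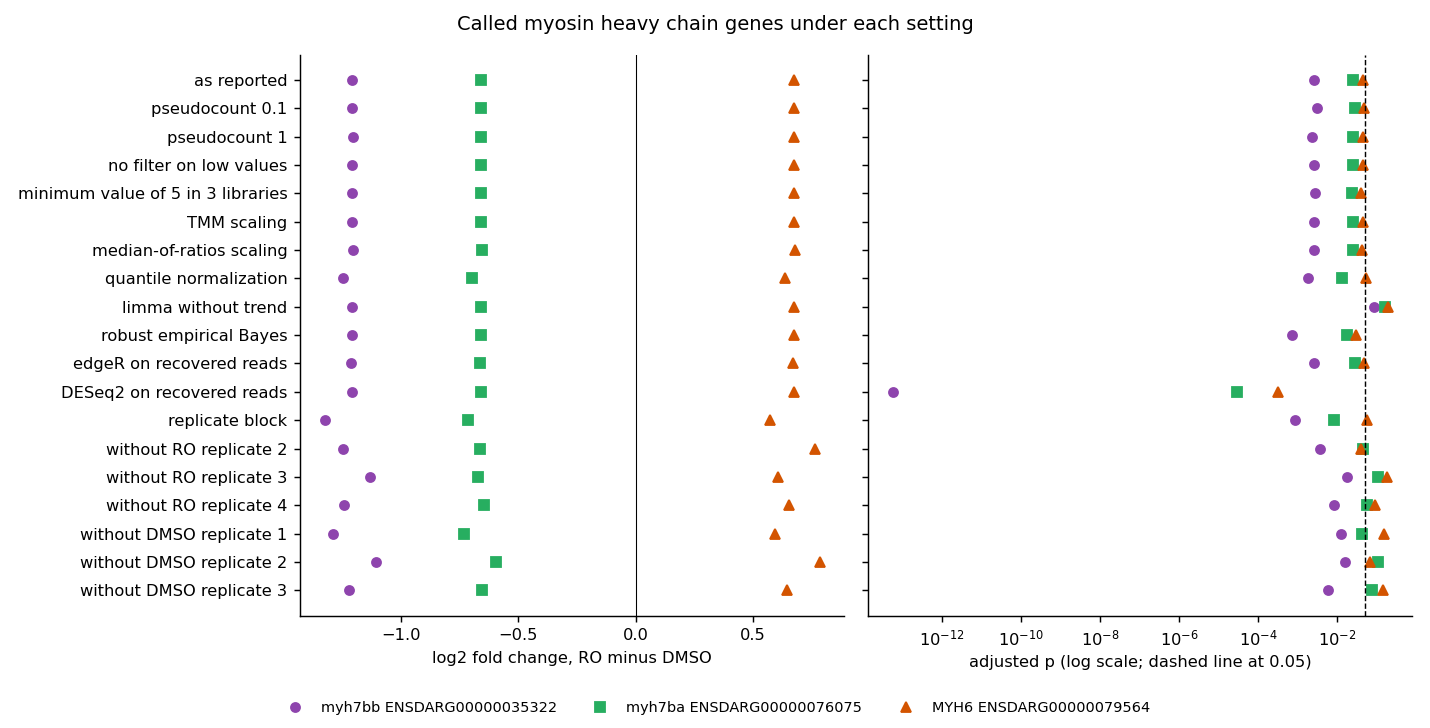
Log2 fold changes (left) and adjusted p (right, log scale, dashed line at 0.05) of myh7bb, myh7ba and MYH6 (ENSDARG00000079564) as reported and under each alternative. Directions stay on 1 side of 0 in every row; myh7bb crosses the line without the limma trend alone, while MYH6 crosses it in 8 of the 18 alternatives and myh7ba in 5.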

How the data were processed

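The authors deposited 1 table of a scaled signal per gene ID and library. The submitters' processing notes list edgeR, RSEM 1.2.3, Bowtie2 2.0.6, cutadapt 1.6.1, CASAVA 1.8 and, as genome build, Zv9, with no role for any. Per the labels' protocols, a TruSeq kit was used for the libraries. The deposited signal values are whole read numbers divided by 1 factor per library: 100% came out whole within 0.01 read, and TMM scaling recomputed from those reads returned the same fold changes.

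Values were tested as log2(value + 0.5) with limma 3.58.1 (trend, R 4.3.3), RO minus DMSO, without covariates, and adjusted over 14211 genes. A minimum of 1 in 3 libraries removed none. The design named a test for either unit, and the one for scaled values applied. Alternatives were other pseudocounts, minimum values, scalings and limma settings, edgeR 4.0.16 and DESeq2 1.42.0 on the recovered reads, a replicate block, and each library left out.

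Of 14211 IDs 11589 had a symbol. There were 15 lists with 180 symbols, of which 122 matched: 65 by symbol, 28 by a RefSeq synonym and 29 by the stem of a paralog name. Members and lists were chosen with earlier results of these data known. Named genes were all members, up to 4 called genes per list or else the 2 with the highest mean value, and the 5 most like each called member. For other cell types these were the called genes, and also ckma and ALDH1A2, which held most of their list's sum. Also named were wt1b, TIE1, POSTN and DCN. Genes that DESeq2 alone called were named too. Others were added for comparison, such as smtnl1, actc1a and the uncalled MYH9 and TAGLN copies. The heart transcription factors with an unadjusted p below 0.05 were named as well. Libraries of a group differed beyond counting noise (chi-square per degree of freedom 5.02 to 11.7). The limma step was tested on simulated data.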

Additional observations from a re-analysis of the deposited data

How the results depend on the processing

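Leaving out each library in turn gave log2 fold changes of -1.29 to -1.11 for myh7bb, -0.73 to -0.59 for myh7ba, 0.60 to 0.78 for MYH6 (ENSDARG00000079564), -0.38 to -0.05 for MYH7 and -0.56 to 2.38 for myh6 (ENSDARG00000090637), and 22 to 105 called genes over the table, against 147 with all libraries. It was 22 without DMSO replicate 2, 52 without RO replicate 3, 59 without DMSO replicate 1 and 95 without RO replicate 2. The RO minus DMSO difference in the share of family reads was -1.01 to 0.64 percentage points for MYH7, with reversals of 0.636 without RO replicate 2 and 0.312 without DMSO replicate 3, 2.199 to 2.92 for MYH6 (ENSDARG00000079564), 0.044 to 0.264 for myh6, -1.28 to -0.63 for myh7ba and -1.68 to -1.30 for myh7bb.

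Without the limma trend 1 gene was called over the table, and the calls of myh7bb (-1.21, adjusted p = 0.0826), myh7ba (-0.66, 0.163) and MYH6 (ENSDARG00000079564; 0.67, 0.189) ended. That of MYH6 also ended with quantile normalization (0.63, 0.0547) and the replicate block (0.57, 0.0570). DESeq2 called 240 of the 7874 genes to which it gave an adjusted p. It gave none to HEY2, BRD8, CHRNB2 and MTG2.

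With the replicate number as a block 405 genes were called, MYH7 stood at -0.52 (adjusted p = 0.0727, against -0.24 and 0.707 without it), myh6 turned to -0.75 and GATA5 to -0.031. Leaving out single libraries gave -0.028 (without DMSO replicate 3) to 0.155 for GATA5. No label says that shared numbers pair the libraries, and only 2 numbers are shared. RO replicate 4 and DMSO replicate 1 stood alone in their blocks and did not enter the RO minus DMSO estimate. The block estimates thus compare only replicates 2 and 3 of the groups, with very few residual degrees of freedom behind the 405 calls. The correlation of deviations was 0.116 for number 2 and 0.0913 for number 3. For RO and DMSO libraries of unlike number it was lower, at -0.116 to 0.0433. Whether shared numbers pair the libraries was not tested. No other cause of the changes under the block was tested. The share corrected for length was not run, since no lengths were used. Of the members, myh6 rests on the fewest reads, at 6 in RO replicate 3, the library with the most recovered reads (4463303).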
